A study of Mus musculus with 8 samples.

Results

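This account concerns the genes of the extracellular matrix in the posterior part of Cdx2 null mouse embryos. The members are the genes whose name in the array files is that of a collagen chain (Col with a number, a and a number), a laminin chain (Lama, Lamb or Lamc with a number) or an Adamts protease. Fn1, Sparc, Fbn1, Fbn2, Fbln1, Fbln2, Nid1, Nid2, Hspg2, Tnc and Vcan complete the group. A member also had to be detected: 3 or more arrays of 1 stage had to carry the scanner's mark for a signal well above background in the same genotype. Of 80 such names on the array, with 161 probes, 60 genes with 82 probes met this limit, and they are 60 of the 15490 genes tested in all. Neither part of this rule uses the ratio of null to wild type, but the group was chosen with earlier results of these data known.

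The matrix is the protein scaffold around cells. Fibrillar collagens are secreted as procollagens, trimmed by proteases of the Adamts and Bmp1 groups and laid down as fibres. Basement membranes are sheets in which a laminin network and a collagen IV network are bridged by nidogens and perlecan. In the elongating posterior embryo, fibronectin and laminin border the presomitic mesoderm, the neural plate and the gut endoderm, and Cdx2, a homeodomain transcription factor, is expressed across these tissues.

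RNA came from C57Bl6J/CBA embryos, either Cdx2 null or wild type, collected with 4/5 or with 7/8 somites. The piece taken lay between the youngest somite and the allantois. Each genotype and stage was 1 pool of 20 embryos, so there were 4 pools, and 4 arrays per stage each carried both of its pools, with the dyes swapped between arrays. The sources used here do not say how the null embryos were obtained. Every ratio is null over wild type on the log2 scale, so that 1 means 2-fold higher in the null pool. SDs are over the 4 arrays of a stage and are technical, since those arrays carry the same RNA. The test over both stages was limma on 1 mean per stage (n = 2), adjusted over all genes by Benjamini-Hochberg, with "called" for an adjusted p of at most 0.05. Its p-values rest largely on a spread shared across genes and speak only for the variation from one stage's pools to the other's. Arrays are numbered 1 to 4 within a stage, with the null pool on Cy3 on arrays 1 and 3 and on Cy5 on arrays 2 and 4. Arrays 1 and 2 lay on 1 slide and arrays 3 and 4 on another.

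Per channel and array, 46.5% to 58.9% of probes gave a signal well above background. Within a stage, ratios correlated across probes at 0.87 to 0.92 for arrays with equal dyes and 0.49 to 0.57 with swapped dyes. Between the stages, they correlated at 0.51 to 0.63 with equal dyes and at 0.28 to 0.37 with swapped dyes. Arrays of different stages with equal dyes thus correlated about as well as arrays of 1 stage with swapped dyes. Cdx2 itself fell on all 8 arrays, with a mean ratio of -1.39 (SE 0.09), with stage means of -1.23 and -1.55. Whether its probe lies in the deleted part is not known from these sources. All 11 markers of posterior tissue were detected, and 5 of them fell (Cdx2, Cdx4, T, Msgn1 and Hoxb9).

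Over both stages 19 of the 60 members were called (31.7%), where the background over all genes tested was 11.1%. Of them, 16 rose (26.7%, against a background of 6.56%) and 3 fell (5%, against 4.54%). The members' median ratio was 0.07, and that of all genes tested was -0.01. The genes that rose were Adamts2, Col2a1, Nid1, Col14a1, Col11a1, Col1a1, Sparc, Col5a1, Col18a1, Col4a2, Fbln1, Col5a2, Hspg2, Col16a1, Adamts7 and Adamts19, and those that fell were Col3a1, Adamts9 and Nid2. The samples are pooled tissue, so a gain of cells that make a transcript and more of it per cell cannot be told apart.

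In each of 19 alternative settings of the processing, 7 of these calls held: Adamts2, Col2a1, Nid1, Col14a1, Col11a1, Col1a1 and Col18a1. Sparc, Col5a2, Col5a1 and Fbln1 lost theirs in 1 to 5 settings. The other 8, among them all 3 that fell, lost theirs in over 5. Leaving out 1 array was enough to move the count of falls: it was 0 without array 2 of 4/5 somites or without array 2 or 4 of 7/8 somites, and 1 without array 3 or 4 of 4/5 somites. With each array's ratios centred on the median in place of loess, 7 members rose and 0 fell, against 351 up and 117 down over all genes (1016 and 704 with loess). No called mean ratio changed its sign in any of the 19 settings.

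**Figure D1:**
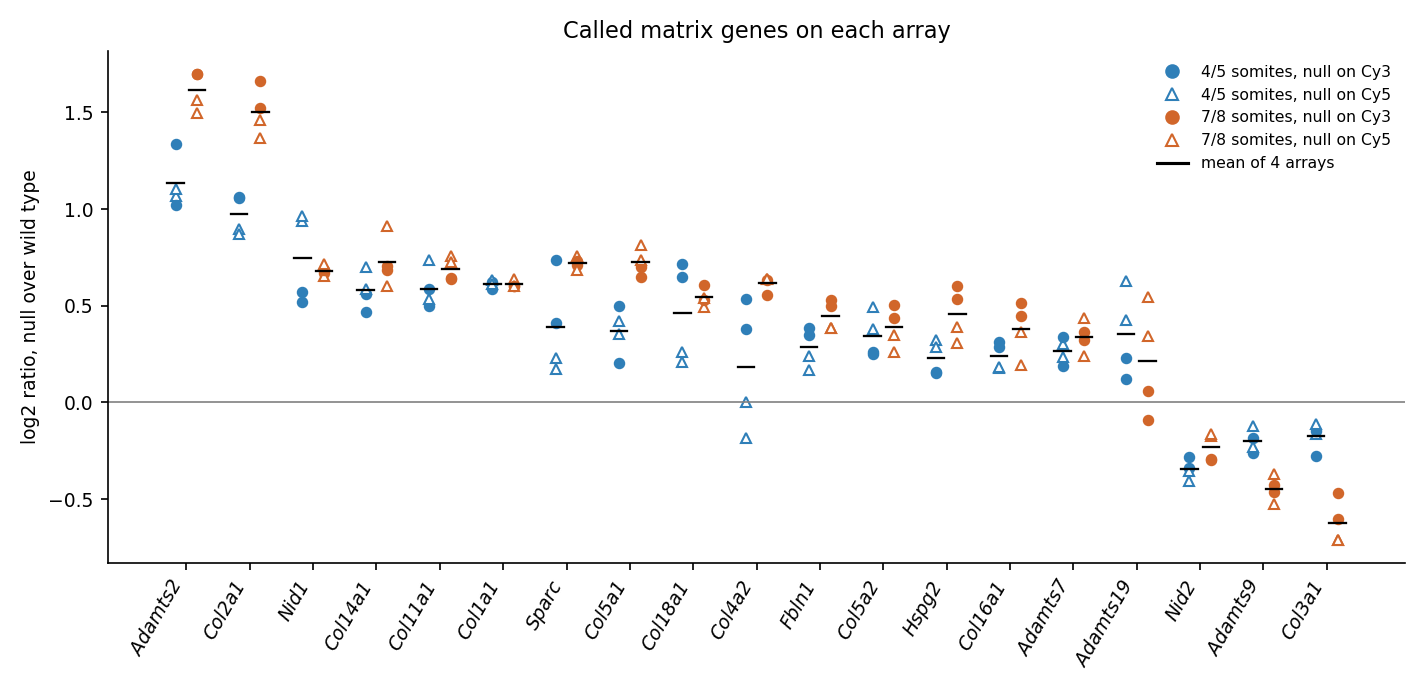
Log2 ratio of null over wild type on each of the 8 arrays for the 19 called matrix genes, ordered by mean; circles and triangles mark the dye of the null pool, colours the stage, and bars the mean of 4 arrays. Adamts2 and Col2a1 stand above the rest. At 4/5 somites the arrays of Col4a2, Sparc, Col18a1, Nid1 and Adamts19 split most widely by dye. Narrower splits by dye are seen there too, among them those of Fbln1, Hspg2, Col2a1, Col5a2 and Col16a1.

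The family counts below are small, and over all genes 11.1% were called. The fibrillar collagens, which form the banded fibres of connective tissue, gave 5 rises and 1 fall among 10 detected chains (median ratio 0.22). Collagen IV, the network collagen of basement membranes, gave 1 rise among 5 (median 0.07). The fibril-associated collagens, which decorate fibres, gave 2 rises among 6 (median 0.19), and the other collagens 1 among 7 (median -0.04). Among the 9 laminin chains 0 were called (median -0.01), a count that, like 1 of 5 and 1 of 7, lies near that background. Nidogens and perlecan gave 2 rises and 1 fall among 3. The Adamts proteases gave 3 rises and 1 fall among 13 (median 0.07), and the glycoproteins with versican 2 rises among 7 (median 0.06).

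**Figure D2:**
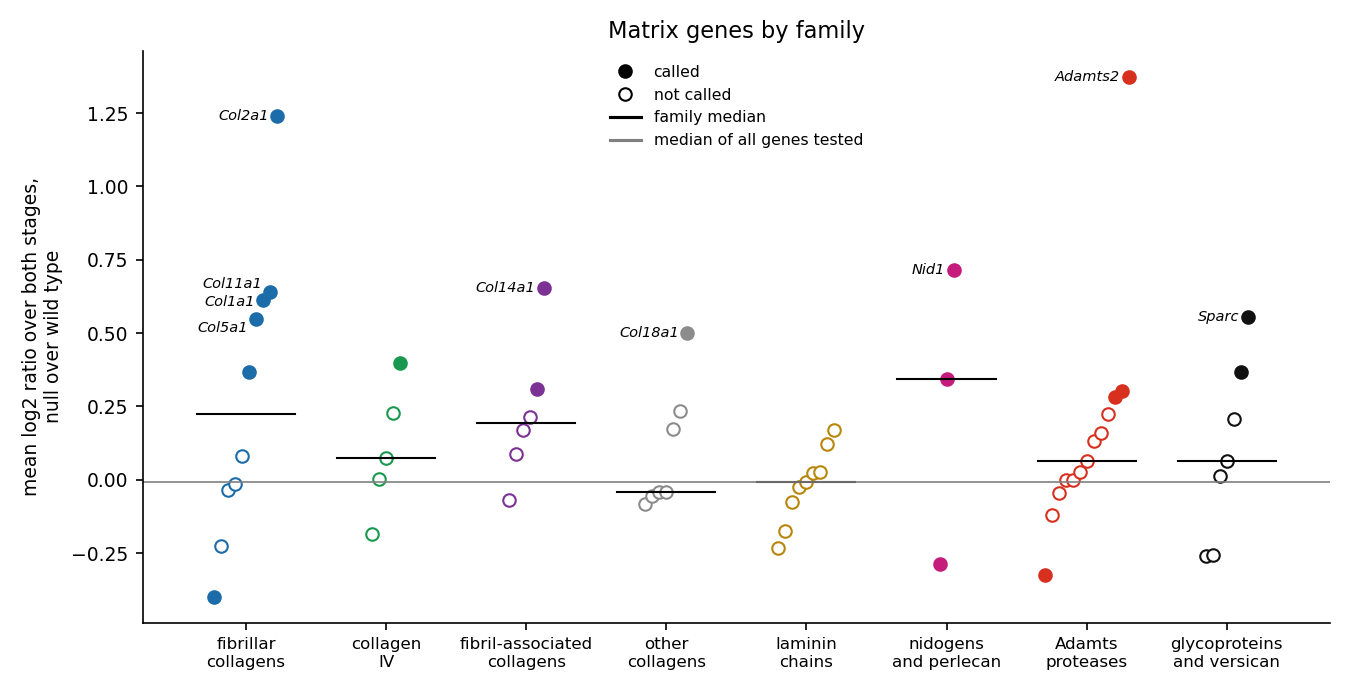
Mean log2 ratio over both stages (null over wild type) of the 60 detected matrix genes by family; filled points are called, open points are not, black bars are family medians and the grey line is the median of all genes tested, -0.01. The 9 laminin chains lie between -0.23 and 0.17, and the fibrillar collagens between -0.40 and 1.24.

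Adamts2, the protease that removes the amino-terminal propeptide of fibrillar procollagens, had the largest ratio of any member. On arrays 1 to 4 it was 1.34, 1.07, 1.02 and 1.11 at 4/5 somites, and 1.70, 1.56, 1.70 and 1.499 at 7/8 somites. All 8 arrays were thus above 2-fold, and the stages did not overlap. The stage means were 1.13 ± 0.14 and 1.61 ± 0.10 (SD, 4 arrays), and the mean over both was 1.37 (SE 0.10, adjusted p = 7.6e-10, limma). It was the only member past 2-fold with the same sign on all 4 arrays at 4/5 somites (background 0.387%), and 1 of 2 at 7/8 somites (background 0.51%), the other being Col2a1.

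The size for Adamts2 depended on the probe. The brightest probe (chr11:50617472-50617531, mm9) gave 1.37, a dimmer one (chr11:50611478-50611537) gave 0.66, and the dimmest (chr11:50620833-50620892) gave 0.47, the widest spread among the 18 members with several detected probes and the only one over 0.5. The wild type pool was well above background at the dimmest probe on 0 arrays of either stage and at the middle one on 2 of 4 per stage, so that the wild type level at the dimmest probe is only known to lie near or below background. The 2 dimmer probes passed the limit through the null pool, where they are brighter, so their sign adds no support. With the mean of the probes the ratio was 0.83, and in the deposited value table it was 2.19.

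The other procollagen N-proteinases were not called. Adamts3 had stage means of 0.11 and -0.11, and Adamts14 of -0.08 and -0.15. Adamts7, a protease of the cartilage matrix protein COMP, rose by a mean ratio of 0.30 (SE 0.09, adjusted p = 0.020, limma), with all 8 arrays between 0.19 and 0.44. Its second probe gave 0.25. Adamts19 rose by 0.28 (SE 0.09, adjusted p = 0.033), but 1 array at 7/8 somites was at -0.09 and the ratios split by dye, at 0.18 and -0.02 with the null pool on Cy3 and 0.53 and 0.44 with it on Cy5 (4/5 and 7/8 somites). The call of Adamts7 ended in 8 settings (adjusted p up to 0.12), among them without array 2 or 3 of 4/5 somites and array 2 or 4 of 7/8 somites. That of Adamts19 ended in 12 (up to 0.21), among them without array 2, 3 or 4 of 4/5 somites and array 2 or 4 of 7/8 somites.

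Among the proteases that cut versican, Adamts9 fell and the other detected ones were not called. Adamts9 read -0.19, -0.12, -0.26 and -0.23 at 4/5 somites and -0.46, -0.52, -0.43 and -0.37 at 7/8 somites, negative on all 8 arrays with no overlap of the stages. Its mean ratio was -0.32 (SE 0.09, adjusted p = 0.017, limma). A second, dimmer probe gave -0.11, and the call ended in 10 settings (adjusted p up to 0.19), including without array 2, 3 or 4 of 4/5 somites and array 2 or 4 of 7/8 somites. Adamts1 had a mean of 0.22 (adjusted p = 0.10) and Adamts15 of 0.16 (adjusted p = 0.30), both positive on all 8 arrays. Adamts20 was at 0.02 and 0.24 at the stages. Adamts4 was positive on the 4 arrays of 4/5 somites (mean 0.25 ± 0.09) and negative on those of 7/8 somites (-0.12 ± 0.09). Its signal was low, with the wild type pool well above background on 3 of 4 arrays per stage. Versican, the substrate, had a mean of -0.26 (SE 0.09, adjusted p = 0.053) and was negative on all 8 arrays, between -0.39 and -0.14.

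Col2a1, the main collagen of cartilage, also made by the notochord and the early sclerotome, was the fibrillar chain with the largest ratio. It read 1.06, 0.90, 1.06 and 0.87 at 4/5 somites, and 1.66, 1.37, 1.52 and 1.46 at 7/8 somites. Every array of the later stage was above every array of the earlier one. The means were 0.97 ± 0.10 and 1.504 ± 0.12, and over both stages 1.24 (SE 0.10, adjusted p = 5.7e-09, limma). A second probe gave 1.24 as well, but it overlaps the first in position (chr15:97806485-97806544 against chr15:97806505-97806564, mm9) and adds no separate reading. Another, dim probe that did not meet the detection limit was at -0.05 and 0.05.

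Col11a1, which nucleates the thin collagen fibrils of cartilage and early mesenchyme, rose on all 8 arrays. Its ratios were 0.50, 0.54, 0.58 and 0.74 at 4/5 somites and 0.64, 0.76, 0.64 and 0.72 at 7/8 somites, so that the stages overlapped. The mean was 0.64 (SE 0.08, adjusted p = 9.4e-06, limma). Its partner chain Col11a2 was at -0.02 (adjusted p = 0.96), at low signal.

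The collagen V chains, which set the diameter of type I fibrils, both rose. Col5a1 read 0.50, 0.36, 0.20 and 0.42 at 4/5 somites and 0.65, 0.81, 0.70 and 0.74 at 7/8 somites, with no overlap (mean 0.55, SE 0.09, adjusted p = 0.00019, limma). Another, dim Col5a1 probe that did not meet the detection limit was at 0.01 and -0.07. Col5a2 lay between 0.25 and 0.51 on all 8 arrays (mean 0.37, SE 0.09, adjusted p = 0.0047). Col5a1 lost its call in 3 settings (adjusted p up to 0.075) and Col5a2 in 2 (up to 0.070).

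Collagen I and collagen III are the main fibres of loose connective tissue. Of their chains Col1a1 was called up, Col3a1 was called down and Col1a2 was not called. The differences between these chains were not tested. Col1a1 read 0.62, 0.63, 0.59 and 0.61 at 4/5 somites and 0.60, 0.64, 0.60 and 0.60 at 7/8 somites, the narrowest spread of the called members. Its mean was 0.61 (SE 0.08, adjusted p = 1.5e-05, limma), or 0.39 with the mean of its probes. The second, dimmer Col1a1 probe gave 0.16.

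Col1a2, the chain that joins with Col1a1 in collagen I, was not called. It read -0.82, -0.28, -0.73 and -0.36 at 4/5 somites and -0.07, 0.32, -0.09 and 0.24 at 7/8 somites. All arrays of the earlier stage were negative and lay below those of the later stage, where the sign followed the dye. Its mean was -0.22 (SE 0.11, adjusted p = 0.22). Col3a1 fell: it read -0.28, -0.16, -0.15 and -0.11 at 4/5 somites and -0.47, -0.71, -0.60 and -0.71 at 7/8 somites. The mean was -0.40 (SE 0.10, adjusted p = 0.0067, limma), and the later stage was lower on every array. That call ended in 8 settings (adjusted p up to 0.17), among them without array 2 of 4/5 somites and without array 2 or 4 of 7/8 somites.

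Among the fibril-associated collagens, Col14a1, which binds the surface of fibrils, rose on every array. It read 0.56, 0.59, 0.47 and 0.70 at 4/5 somites and 0.69, 0.91, 0.71 and 0.60 at 7/8 somites (mean 0.65, SE 0.09, adjusted p = 7.9e-06, limma). Its signal was low: the wild type pool was well above background on 4 of 4 arrays at 4/5 and 2 of 4 at 7/8 somites, and the deposited value table gave 1.35. Col16a1 rose by 0.31 (SE 0.09, adjusted p = 0.019), with arrays between 0.18 and 0.51. The call of Col16a1 ended in 9 settings (adjusted p up to 0.13), among them without array 2 or 3 of 4/5 somites and array 2 or 4 of 7/8 somites. Col9a1, a chain of cartilage collagen IX, was positive on all 8 arrays with a mean of 0.21 (adjusted p = 0.11), and Col9a2, Col9a3 and Col22a1 had means between -0.07 and 0.17.

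The basement membrane genes divided. Nid1, or nidogen, which links laminin to collagen IV, rose, whereas the related Nid2 fell. Nid1 read 0.57, 0.94, 0.52 and 0.96 at 4/5 somites and 0.67, 0.66, 0.69 and 0.71 at 7/8 somites. At the earlier stage the 2 arrays with the null pool on Cy5 were higher, at a mean of 0.95 against 0.55. The mean was 0.72 (SE 0.08, adjusted p = 1.8e-06, limma).

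Nid2 read -0.28, -0.40, -0.34 and -0.35 at 4/5 somites and -0.29, -0.17, -0.30 and -0.16 at 7/8 somites, below 0 on every array. Its mean was -0.29 (SE 0.09, adjusted p = 0.029, limma). The call ended in 13 of 19 settings (adjusted p up to 0.30), and without any one of 7 arrays, the exception being array 1 of 4/5 somites. Hspg2, the core protein of perlecan, rose on all 8 arrays, between 0.15 and 0.60, with means of 0.23 ± 0.09 and 0.46 ± 0.13 (over both 0.34, SE 0.09, adjusted p = 0.010). That call ended in 6 settings (adjusted p up to 0.11), among them without array 2 of 4/5 somites and without array 2 or 4 of 7/8 somites.

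Col4a1 and Col4a2, the chains of the common collagen IV protomer, were both higher in the null pool at 7/8 somites and had lower ratios at 4/5 somites. Col4a1 read -0.08, -0.04, -0.01 and 0.18 at the earlier stage and 0.35, 0.54, 0.36 and 0.53 at the later one. Col4a2 read 0.53, -0.18, 0.38 and 0.00, and then 0.56, 0.64, 0.64 and 0.64. For both genes every array at 7/8 somites was above every array at 4/5 somites, and at 4/5 somites the Col4a2 arrays split by dye.

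Col4a2 rose (mean 0.40, SE 0.10, adjusted p = 0.0062, limma) and Col4a1 was not called (0.23, SE 0.10, adjusted p = 0.15). The difference between these 2 chains was not tested. A second probe gave stage means of -0.06 and 0.44 for Col4a1, and of 0.07 and 0.58 for Col4a2. The Col4a2 call ended in 8 settings (adjusted p up to 0.16), among them without array 3 of 4/5 somites and without array 2 or 4 of 7/8 somites. Col4a4, Col4a5 and Col4a6, chains of the other collagen IV protomers, had means between -0.19 and 0.07.

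These 2 genes lie head to head, and in the RefSeq promoter table (GRCm38.p6) their starts are 21 bases apart on opposite strands. The stretch, at chr8:11312801-11312830, is shown because both transcripts begin within it. Capitals run from one start to the other, at 11312805 and 11312826, and each line is 5′ to 3′ on the strand of its gene.
Col4a1: ccccTTGGAGACGCCGCCCGCGCACTgccg
Col4a2: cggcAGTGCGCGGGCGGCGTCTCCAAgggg
It was the only pair of members whose promoter windows overlapped, among the 39 members for which the table holds a window.

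Promoter windows of that table (250 bases before to 50 after a start, 44 windows for 39 members) were searched on both strands for 5 short motifs. One is TTTATG, a core of the site that Cdx proteins bind, and another is its variant TTTATT. The others are the GC box, GGGCGG, the CCAAT box and the TATA box, TATAAA, which on the other strand shares its opening letters with the Cdx cores. A gene counted as holding a motif if any of its windows did, and the shares are set beside those of the 10387 tested genes with a window, counted in the same way. The Cdx core was in 4 of 39 members (10.3%, against 8.6% of tested genes), with 0 of the 10 risen and 0 of the 2 fallen ones. Its variant was also in 4 of 39 (10.3%, against 14.0%), 1 of them risen, Fbln1. The GC box was in 31 of 39 (79.5%, against 66.6%), among them 9 of the 10 risen members. The CCAAT box was in 14 of 39 (35.9%, against 42.8%), 5 of them risen. The TATA box was in 4 of 39 (10.3%, against 9.7%), among them the fallen Col3a1. Over all 32851 single windows, the shares were 11.9%, 19.6%, 35.7%, 37.4% and 13.6% in the same order. These counts have no test, and a match is a description of the letters, not a site. The 250 bases before the start are printed for Fbln1, the risen gene with a match to the variant core, and for Adamts2 and Nid1, the 2 largest rises with a window, all on the plus strand. Capitals mark the GC box and both Cdx cores on either strand.
Fbln1 (chr15:85205699-85205948): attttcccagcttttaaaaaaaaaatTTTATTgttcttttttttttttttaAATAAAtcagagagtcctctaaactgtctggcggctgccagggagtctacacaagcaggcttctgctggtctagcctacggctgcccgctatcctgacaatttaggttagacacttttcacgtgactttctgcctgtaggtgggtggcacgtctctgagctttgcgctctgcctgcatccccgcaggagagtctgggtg
Adamts2 (chr11:50601835-50602084): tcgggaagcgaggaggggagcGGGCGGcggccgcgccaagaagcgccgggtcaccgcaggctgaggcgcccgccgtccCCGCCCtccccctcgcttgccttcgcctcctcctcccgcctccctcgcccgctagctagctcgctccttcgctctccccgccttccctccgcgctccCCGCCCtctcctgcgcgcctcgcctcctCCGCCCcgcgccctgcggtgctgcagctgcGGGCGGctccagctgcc
Nid1 (chr13:13437352-13437601): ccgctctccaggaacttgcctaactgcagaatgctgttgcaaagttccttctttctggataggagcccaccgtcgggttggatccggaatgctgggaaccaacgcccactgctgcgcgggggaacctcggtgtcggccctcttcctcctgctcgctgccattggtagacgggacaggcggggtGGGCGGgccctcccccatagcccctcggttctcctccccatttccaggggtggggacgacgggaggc
The Fbln1 stretch holds the variant core on each strand, 2 matches in all, and no GC box. Fbln1 has another window in the table (chr15:85205758-85206057), with 2 GC boxes and no variant core. Adamts2 holds 5 GC boxes and Nid1 holds 1. No match says only that these letters are not in this window.

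The laminins, the trimers that build the first basement membranes, had 0 of 9 detected chains called by limma, and 1 (Lamc1) at an unadjusted p under 0.05. Lamc1, the gamma chain of most laminins, was negative on all 8 arrays, between -0.44 and -0.07, with a mean of -0.23 (SE 0.09, adjusted p = 0.093, limma). Lama5 had a mean of -0.17 (adjusted p = 0.25) and Lama1 of 0.03 (adjusted p = 0.93). Lamb1, listed in the files under an older name and so outside the member rule, had a mean of 0.08 (adjusted p = 0.71). Lama4, a chain of vessel basement membranes, was at 0.31 ± 0.10 and then 0.03 ± 0.16, without overlap. A second Lama4 probe gave 0.21 and 0.03, with overlap of the stages, and the dimmest gave 0.12 and 0.20. Lamb3 was detected through the null pool alone at 4/5 somites, where the wild type channel was not well above background on any array. Its ratios there were 0.31, -0.02, 0.15 and -0.04, with no common sign.

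Col18a1, the basement membrane collagen whose fragment is endostatin, rose. It read 0.72, 0.21, 0.65 and 0.26 at 4/5 somites and 0.61, 0.49, 0.53 and 0.54 at 7/8 somites, positive throughout, with a split by dye at the earlier stage. The mean was 0.50 (SE 0.08, adjusted p = 0.00020, limma), and a second probe gave 0.25. The other collagens (Col6a2, Col7a1, Col8a1, Col13a1, Col23a1 and Col25a1) had means between -0.08 and 0.23, and Col6a2, a chain of the beaded microfibrils, was at -0.05 with its partners Col6a1 and Col6a3 below the detection limit. Emid2, the file's name for Col26a1, lies outside the member rule by that name. It was higher on all 8 arrays, with stage means of 1.43 and 1.53 (mean 1.48, SE 0.09, adjusted p = 2.5e-11), above the ratio of any member.

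**Figure D3:**
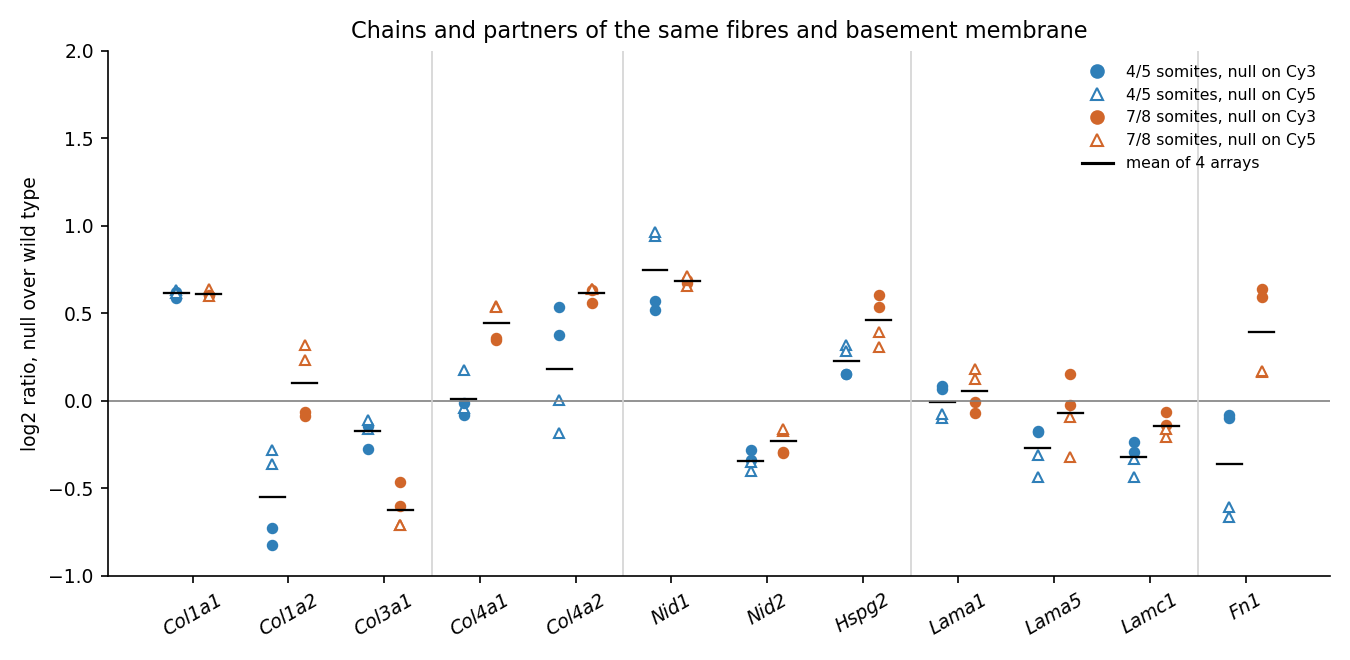
Log2 ratio of null over wild type on each array for chains and partners of the same fibres and of the basement membrane, with symbols for the dye of the null pool, colours for the stage and bars for the mean of 4 arrays. Nid1 lies above 0 and Nid2 below it on all 8 arrays, Col1a1 stays between 0.59 and 0.64, and Fn1 changes sign between the stages.

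Sparc and Fbln1 rose among the glycoproteins. Sparc, a collagen-binding protein abundant in basement membranes and parietal endoderm, read 0.41, 0.17, 0.74 and 0.23 at 4/5 somites and 0.71, 0.76, 0.73 and 0.68 at 7/8 somites. Its mean was 0.55 (SE 0.09, adjusted p = 0.00014, limma), its second probe gave 0.36, and its call ended with median centring alone (adjusted p = 0.062). Fbln1, a fibulin of basement membranes and elastic fibres, lay between 0.17 and 0.53 on all 8 arrays (mean 0.37, SE 0.09, adjusted p = 0.0053). A second probe gave 0.15, and the call ended in 5 settings (adjusted p up to 0.080). Fbln2 was at 0.06 (adjusted p = 0.77).

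The fibrillins, which form the microfibrils, were not called. Fbn2, the fibrillin of embryonic tissue, was negative on all 8 arrays (mean -0.26, SE 0.09, adjusted p = 0.053, limma). Fbn1 had a mean of 0.21 (adjusted p = 0.13) with a wide split by dye, -0.08 and -0.05 with the null pool on Cy3 against 0.43 and 0.53 on Cy5. Fbn1 was called in 3 settings, with an adjusted p down to 0.010 in the deposited value table, where its ratio was 0.48.

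Fn1, or fibronectin, the matrix glycoprotein on which somites and the neural tube assemble, changed its sign with the stage. It read -0.08, -0.66, -0.10 and -0.61 at 4/5 somites and 0.64, 0.17, 0.59 and 0.17 at 7/8 somites. All arrays of the earlier stage were below 0 and all of the later one above it, and within each stage the arrays with the null pool on Cy5 were lower. A second probe of Fn1 gave -0.40 ± 0.11 and 0.49 ± 0.21, also without overlap, and the dim last one -0.22 and 0.02. Over both stages the mean was 0.01 (adjusted p = 0.98, limma).

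Arrays of the 2 stages lay on opposite sides of 0 in 2 of the 60 members, Fn1 and Adamts4 (3.33%, background 3.87%). In 25 members all 8 arrays had the same sign (41.7%, background 19.6%), 17 of them positive and 8 negative. The arrays of the 2 stages did not overlap in 15 members (25%, background 18.6%), and the later stage was higher in 10 of these. Among the called ones of the 15, Adamts2, Col2a1, Col5a1 and Col4a2 were further above 0 at 7/8 somites, and Col3a1 and Adamts9 further below it. A stage difference of 2-fold without overlap was found in 0 members (background 0.0516%). The widest were 0.76 for Fn1 and 0.65 for Col1a2. With 1 pool per genotype and stage, these differences have no test.

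**Figure D4:**
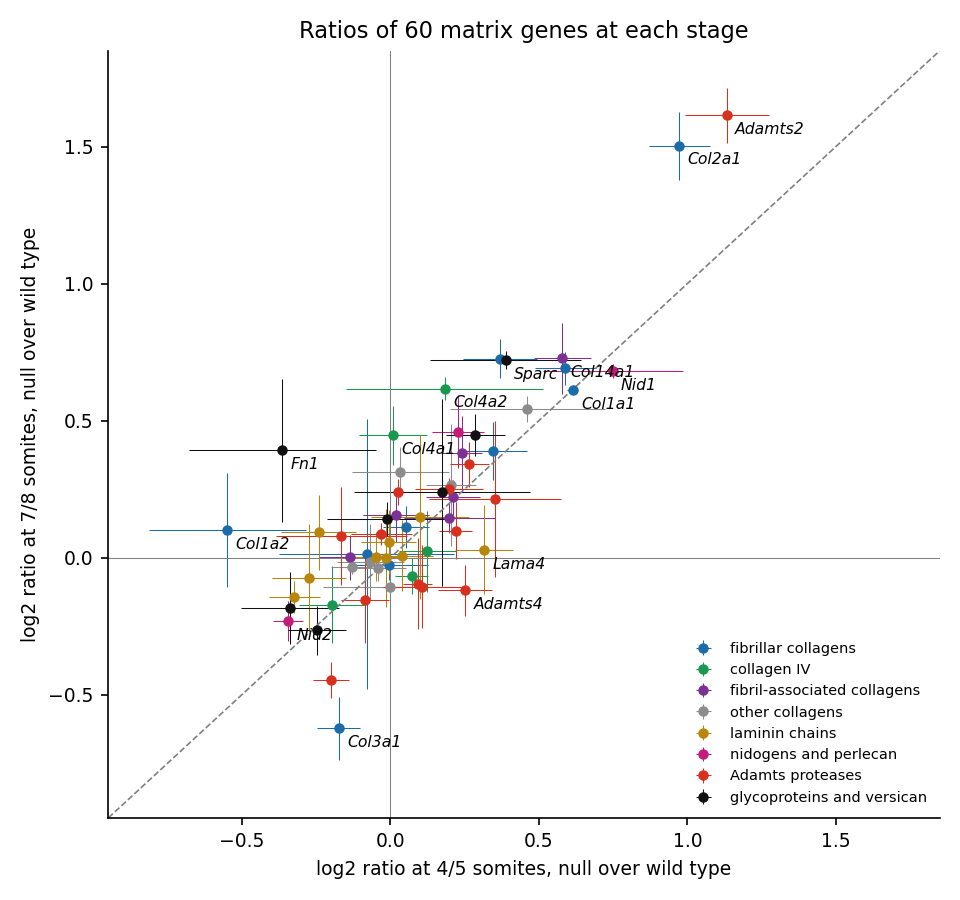
Mean log2 ratio of null over wild type at 4/5 somites (horizontal) and at 7/8 somites (vertical) for the 60 matrix genes, coloured by family, with bars of 1 SD over the 4 arrays of a stage; the dashed line marks equal ratios. Adamts2 and Col2a1 lie in the upper right above the line, and Fn1 in the upper left at -0.36 and 0.39.

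Levels within a genotype were set side by side for the stages, after loess and quantile scaling across arrays, with no test since the stages lie on different arrays and each is 1 pool. In wild type no member was 2-fold apart without overlap (0 of 60, background 0.252%), and in the null pools Col1a2 was (1 of 60, background 0.291%). The log2 level of Col1a2 was 1.08 higher at 7/8 somites in the null pool and 0.43 higher in wild type. Col1a1 was higher by 0.69 in wild type and 0.68 in the null pool, and Col3a1 by 0.97 and 0.52. Fn1 changed by -0.09 in wild type and by 0.66 in the null pool, Col2a1 by -0.03 and 0.50, Adamts2 by 0.07 and 0.55, and Col4a1 by -0.37 and 0.07. For Fn1, Col2a1 and Adamts2 the gap between the stages was thus mainly in the null channel. For Col4a1 it was mainly in the wild type channel at the brightest probe. The second Col4a1 probe changed by -0.05 in wild type and by 0.44 in the null pool, mainly in the null channel. Col4a6 changed by -0.97 and -1.07, but its array SD at 7/8 somites was 2.33 in wild type and 2.28 in the null pool, and its second probe changed by -0.23 and -0.22.

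**Figure D5:**
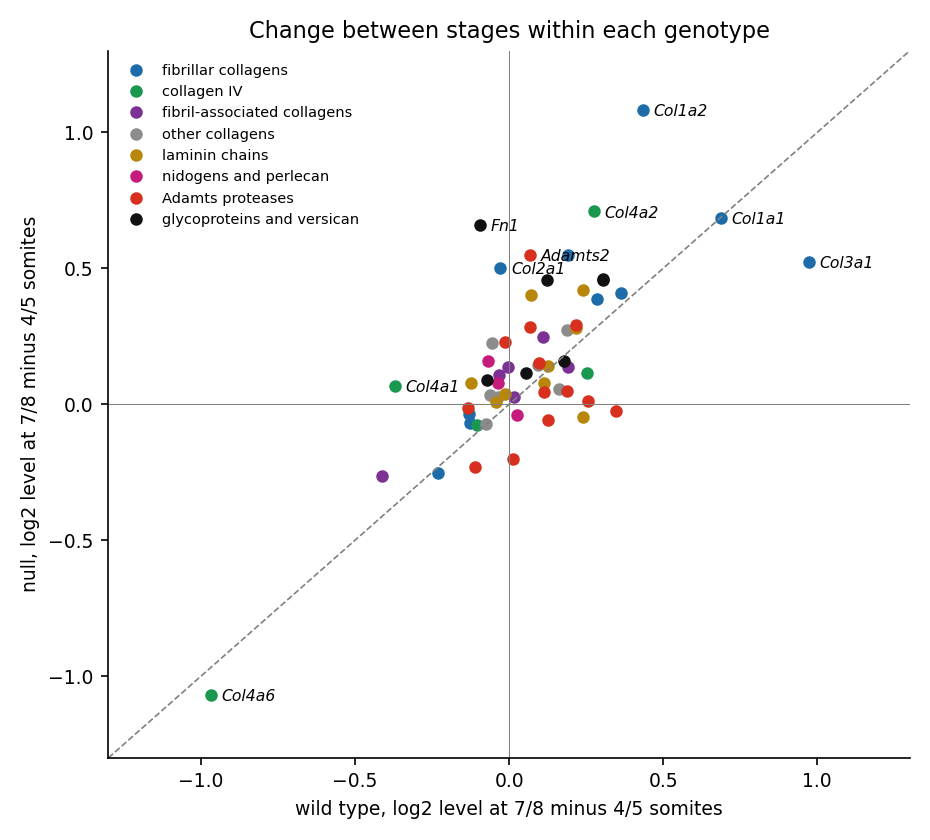
Log2 level at 7/8 minus 4/5 somites in wild type (horizontal) and in the null pool (vertical) for the 60 matrix genes, coloured by family; the dashed line marks equal change. Col1a1 lies on the line, Col1a2, Fn1, Col2a1 and Adamts2 above it and Col3a1 below it, and the point of Col4a6 rests on arrays with an SD of over 2.

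Of the 80 names, 20 were not detected and have no value here, among them Tnc, Col6a1, Col6a3, Col12a1, Col15a1, Lama2 and Adamts5. At the limit of detection, 8 probes were just inside, with 3 arrays, and had mean ratios from -0.07 to 0.47. Another 8 were just outside, with 2 arrays, and had mean ratios from -0.03 to 0.17.

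Genes outside the members that make, cut or bind matrix were read from lists. Their counts are to be set against the 6.56% of all genes that rose and the 4.54% that fell. Calls of single genes outside the members, here and among the markers below, were not followed through the 19 alternative settings. Of 14 detected collagen processing enzymes (of 19), 1 rose and 0 fell (median ratio -0.04), a count near that background. The gene that rose was Loxl1, a cross-linking oxidase (0.32, SE 0.09, adjusted p = 0.019, limma). Bmp1, which cuts the other end of procollagen, and the detected collagen hydroxylases were thus not called. Of 18 matrix receptors, 4 rose and 1 fell (median 0.02). Itga8 (0.998, SE 0.08), Itga11, a collagen receptor (0.68, SE 0.09), Itga9 (0.44, SE 0.09) and the collagen receptor kinase Ddr1 (0.42, SE 0.09) rose, and Itgb8 fell (-0.60, SE 0.09).

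Of 12 matrix proteases and inhibitors, 4 rose and 1 fell (median 0.05). Plat, the tissue plasminogen activator (0.57, SE 0.09), the inhibitor Timp3 (0.42, SE 0.10), Mmp14 (0.34, SE 0.08) and Mmp11 (0.31, SE 0.09) rose, and the inhibitor Timp1 fell (-0.37, SE 0.08). Of 18 genes of hyaluronan and proteoglycans, 6 rose and 2 fell (median 0.01). The largest were Has2, the main embryonic hyaluronan synthase (0.67, SE 0.09), and Agrn, agrin (0.48, SE 0.09), both up, and Bcan, brevican (0.46, SE 0.09), also up, while the syndecan Sdc2 fell (-0.78, SE 0.09).

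Possible sources of matrix in or beside the tissue were read from lists of markers. The lists are not exclusive: T is on both the notochord and the posterior list, and Plat is also among the matrix proteases. The summed levels of the 2 genotypes overlapped for parietal endoderm at 4/5 somites and for posterior tissue at 7/8 somites. Of 7 parietal endoderm markers 3 rose and 1 fell, but Sparc is 1 of the 3. Their summed level at 4/5 somites was 7319 to 8042 intensity units per array in wild type and 7266 to 8253 in the null pool. At 7/8 somites it was 7328 to 7819 against 8346 to 9171. The members Sparc and Lamc1 are in this sum, so it does not read this source apart from the matrix genes. Of 5 somite and sclerotome markers 3 rose: Meox1 (1.22 and 0.62 at the stages), Tcf15 (1.03 and 0.14) and Foxc2 (0.88 and 0.09). The summed level over the 5 was 2944 to 3086 in wild type and 5233 to 5653 in the null pool at 4/5 somites, and 3468 to 3709 against 3962 to 4126 at 7/8 somites. The sclerotome markers Pax1, Pax9 and Nkx3-2 were not detected, and Nkx3-2 was above background on 0 arrays. Of 7 notochord and node markers 0 rose and 3 fell, among them Shh (-0.60, SE 0.09), and the sum was 6893 to 7242 in wild type and 5089 to 5337 in the null pool at 4/5 somites, and 6252 to 6514 against 5529 to 5787 at 7/8 somites.

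Of 7 genes listed as allantois markers, Tbx4 and Vcam1 were above background on 0 arrays. Of the 5 detected ones 3 rose and 1 fell: Snai2 (1.27), Ahnak (0.80) and Postn (0.44) up, Bmp4 (-0.49) down. The sum of these 5 was 4435 to 4716 in wild type and 6691 to 7572 in the null pool at 4/5 somites. At 7/8 somites it was 5093 to 5517 against 8544 to 9273. Whether this sum reads the allantois was not tested. Of 7 endothelial markers 0 rose and 4 fell (Etv2, Kdr, Tal1 and Egfl7), and the sum was 3917 to 4158 against 3170 to 3454 at 4/5 somites and 5398 to 6714 against 3089 to 3656 at 7/8 somites. Visceral endoderm markers rose in 4 of 10 (Cubn, Amn, Apoe and Apoa1), with sums of 29126 to 31623 against 45303 to 48845 and then 19384 to 20033 against 27417 to 28741. The surface ectoderm markers rose in 4 of 6, led by Krt5 (0.92), with sums of 4878 to 5341 against 6217 to 7423 and then 5274 to 6015 against 7775 to 9270. The neural tube list had 1 rise among 4, with sums of 811 to 869 against 915 to 1018 and then 989 to 1063 against 1068 to 1157. The trophoblast list had 4 rises and 1 fall among 6, with sums of 1269 to 1348 against 1641 to 1836 and then 1420 to 1534 against 2183 to 2283. The 11 posterior markers summed to 33208 to 36222 against 22865 to 23986 and then 31004 to 35034 against 29284 to 31167. Whether the makeup of the tissue had a part in the matrix ratios was not tested.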

How the data were processed

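Deposited scanner files gave mean spot and local background intensity, per the file headers without normalization. The deposited value table holds log10 ratios, equal to the scanner's log ratio turned to null over wild type at 45018 of 45018 spots on each array (tolerance 1e-05); it was converted to log2 as an alternative. The scanner software was Agilent Feature Extraction, 9.5.3 per the submitters' processing notes and 10.5.1.1 per the file header. Background was corrected with normexp (offset 50; the 167 spots marked uneven received their array's median background), then loess was applied within arrays in limma 3.58.1 (R 4.3.3) with control spots at weight 0. Outlier spots (1184 array values) were dropped and spots averaged per probe. Of 41174 probes, 21907 were kept; the brightest stood for each gene. Each stage mean of 4 arrays was 1 value (n = 2 per gene; 1 residual and 22.2 prior degrees of freedom; prior SD 0.12), tested two-sided with lmFit and eBayes. Levels are channel values after loess and Aquantile. Probe positions are the file's, on mm9. RefSeq accessions matched 16875 kept probes.

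The members and lists were chosen with earlier results of these data known. Named are called members, members past a size rule, chain partners, members whose probes differed by over 0.5 and up to 4 called genes per list. A check on simulated data, with the spread of the real stage means, followed the test. Of 19 alternatives, each changed 1 choice: background, uneven spots, centring, deposited table, filter, probes, prior, pairs, slides and single arrays. No spot was saturated. The number of arrays limits precision.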

Additional observations from a re-analysis of the deposited data

Results flagged for a closer look

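The arrays of each called or named member were compared within a stage, 60 groups of 4 in all, and chance alone would mark about 1 in 20 of them. In 2 groups an array stood apart. Array 2 of 7/8 somites gave 0.639 for Col1a1, the others 0.600 to 0.604, and array 1 of 7/8 somites gave 0.556 for Col4a2, the others 0.635 to 0.639. Both gaps were under 0.1 on the log2 scale.

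For 2 members the arrays of the stages were all of opposite sign. The Fn1 ratio was 0.76 higher at 7/8 than at 4/5 somites (-0.36 and 0.39), and that of Adamts4 changed by -0.37 (0.25 and -0.12). Neither difference was tested, since each stage is 1 pool per genotype. Adamts4 was dim, with the wild type pool well above background on 3 of 4 arrays per stage, which limits its ratios.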

How the results depend on the processing

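Of 570 comparisons of a named member with an alternative, 0 reversed a called direction. Member counts were 16 up and 3 down. Without background correction 8 rose and 0 fell (342 and 188 of all genes), and 0 passed 2-fold at 4/5 somites. With uneven backgrounds kept 0 fell (620 and 356 of all genes), and 0 passed 2-fold at 4/5 somites. Median centring gave 7 and 0 (351 and 117 of all genes), and no filter on dim probes 9 and 0 (508 and 262). From the deposited values 3 members passed 2-fold at 4/5 somites. With the mean of probes 0 passed 2-fold at 4/5 and 1 at 7/8 somites. The replicate block on the dye swap pairs gave 6 falls among the members, and 1530 rises over all genes. Vcan, Fbn2 and Lamc1 were called under it (adjusted p = 0.015, 0.030 and 0.047). It treats pairs of the same pools as separate values, and pairs with the same label did not deviate together (correlation -0.003). Without 1 array, falls ranged from 0 to 3, members past 2-fold at 4/5 somites from 1 to 2, and calls over all genes from 594 to 925 up and from 365 to 665 down. The cause of these shifts was not tested. Slides split the arrays as the pairs do, so each slide alone stands for both. Lamb3, Col9a3, Col8a1, Col25a1 and Adamts8 lay near background, which limits their ratios.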
